A study of Mus musculus with 3 samples.

Results

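Binding sites of Nuclear Factor I (NFI) defined in wild-type mouse embryonic fibroblasts were examined for those that also carried tags of an NFI chromatin immunoprecipitation from NFI-C knock-out fibroblasts. A site was taken as kept when the 300 bp around its centre held 3 or more knock-out ChIP tags and 0 or 1 tags of input DNA. Of the 38625 deposited sites on chromosomes 1 to 19, 1913 met this rule, or 4.95%. The whole deposited list held 39807 sites, including those on chromosome X. The members were chosen by the knock-out and input tag counts, so these counts are given as a description and were not tested.

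The data came from 3 ChIP-Seq libraries with 1 library per condition and no replicate. The NFI ChIP was made in wild-type and in NFI-C knock-out cells, and the input was non-precipitated DNA of wild-type cells. All cells were fibroblasts of C57BL/6 embryos at 14.5 days, which differed only in the NFI-C allele as far as the labels state. In the knock-out the gene was disrupted by an insertion, and the antibody recognised NFI proteins as a group, so that other family members could be precipitated in either genotype. One label of the knock-out sample gave its cells as wild type, against its title, which was used. Distinct tags numbered 3350071 for the ChIP of wild-type cells, 3132004 for that of knock-out cells and 4100449 for the input, sex chromosomes included. Tags that shared both strand and 5′ position were counted once. As there was 1 library per condition, no test was made across samples, and a difference between genotypes cannot be told apart from one between single libraries. All intervals are 95% intervals that cover counting error only and treat sites, or tags where stated, as independent. They were not adjusted for the number of features compared.

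NFI proteins are a family of transcription factors encoded by Nfia, Nfib, Nfic and Nfix in mammals. They bind DNA as dimers of any pair of members, and the preferred target is a palindrome of 2 arms separated by a short spacer, while a single arm is bound more weakly. In fibroblasts NFI is known for its roles in growth factor responses and in the expression of genes of the extracellular matrix.

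The palindrome was searched as TTGGCANNNTGCCAA allowing up to 2 mismatches among the 12 fixed bases. A palindrome reads the same on both strands, so 1 strand was scanned. Of the 1913 kept sites, 191 held a match, comprising 10 exact ones, 34 that differed at 1 position and 147 that differed at 2. The matches without mismatch are shown first, because kept sites made up the largest share of the deposited sites in this class. Each is printed with 10 bp of mm9 sequence on either side, on the plus strand, named by its nearest protein-coding gene and with the match in capitals. The 2 remaining such sites lay near Mcc and Gramd3 and are named only.
Kcnip4, chr5:49920732-49920766: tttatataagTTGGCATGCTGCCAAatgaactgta
E130114P18Rik, chr4:97443187-97443221: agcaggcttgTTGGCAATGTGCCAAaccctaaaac
Crybg3, chr16:59548368-59548402: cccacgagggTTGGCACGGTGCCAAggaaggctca
Limd1, chr9:123424097-123424131: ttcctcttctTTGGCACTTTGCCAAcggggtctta
1810024B03Rik, chr2:127009080-127009114: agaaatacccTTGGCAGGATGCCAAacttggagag
Inpp4b, chr8:84216712-84216746: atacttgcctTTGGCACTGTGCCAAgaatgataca
Slc35f1, chr10:52423966-52424000: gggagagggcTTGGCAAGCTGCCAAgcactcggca
Nell2, chr15:95094908-95094942: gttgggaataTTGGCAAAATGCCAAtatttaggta

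The next sequences are those of the kept sites with the most knock-out tags among those with 1 mismatch, shown in the same way to let the less exact matches be compared with the exact ones. The site of Ankrd44, in an untranslated region, ranked among them and is named only.
Ctnnb1, chr9:120828026-120828060: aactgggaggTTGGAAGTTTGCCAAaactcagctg
2810055G20Rik, chr16:77501444-77501478: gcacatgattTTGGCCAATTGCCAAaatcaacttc
Celf2, chr2:7168078-7168112: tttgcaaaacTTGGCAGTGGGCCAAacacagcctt
Wisp2, chr2:163626678-163626712: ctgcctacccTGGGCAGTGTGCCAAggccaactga
Wdfy1, chr1:79694087-79694121: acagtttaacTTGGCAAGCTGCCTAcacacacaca
Gdf15, chr8:73158039-73158073: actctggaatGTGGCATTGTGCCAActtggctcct
Baz2b, chr2:60009915-60009949: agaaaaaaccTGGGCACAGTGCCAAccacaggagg

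Most kept sites with many knock-out tags held no palindrome. The whole 300 bp windows of 3 of the 20 strongest sites are therefore printed, 2 without a palindrome and 1 with it, with the arm TTGGCA, the AP-1 motif TGAGTCA, either on both strands, and any palindrome match in capitals. They are among the 6 strongest, with equal knock-out counts ordered by wild-type tags, and were chosen because they hold these motifs, whereas the windows of Camk1d, B930007M17Rik and Sgcd, the remaining ones of these 6, hold none of them.
Bcas3, chr11:85589028-85589327: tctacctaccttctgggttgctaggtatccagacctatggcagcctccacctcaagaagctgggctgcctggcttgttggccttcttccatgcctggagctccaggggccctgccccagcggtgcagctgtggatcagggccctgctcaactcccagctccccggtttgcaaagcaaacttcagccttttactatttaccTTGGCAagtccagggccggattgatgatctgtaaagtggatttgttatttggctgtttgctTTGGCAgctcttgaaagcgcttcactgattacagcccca
Prlhr, chr19:60539881-60540180: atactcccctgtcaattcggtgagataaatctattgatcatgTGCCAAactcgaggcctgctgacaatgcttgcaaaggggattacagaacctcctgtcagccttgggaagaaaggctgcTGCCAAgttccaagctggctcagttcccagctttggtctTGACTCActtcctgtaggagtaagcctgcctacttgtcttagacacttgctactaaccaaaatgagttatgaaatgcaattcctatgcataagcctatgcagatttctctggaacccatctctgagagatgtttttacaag
1110007C09Rik, chr13:49300990-49301289: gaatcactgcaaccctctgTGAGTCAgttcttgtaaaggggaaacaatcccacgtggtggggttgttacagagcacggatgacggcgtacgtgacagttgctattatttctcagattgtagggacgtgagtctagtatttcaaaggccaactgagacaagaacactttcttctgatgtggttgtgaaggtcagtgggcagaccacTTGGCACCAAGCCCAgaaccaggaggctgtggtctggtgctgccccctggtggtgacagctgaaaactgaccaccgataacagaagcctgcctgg

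The Bcas3 window held 2 separate arms in the same orientation. The window near Prlhr held 2 arms on the other strand and an AP-1 motif. The window in 1110007C09Rik held an AP-1 motif and a palindrome with 2 mismatches whose centre lay 62 bp from the centre of the site.

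Kept sites had on average 3.99 knock-out tags, 3.72 wild-type tags and 0.416 input tags in 300 bp. These were 10.7, 9.32 and 0.847 times the genome average of the same library over chromosomes 1 to 19. In total the kept sites held 7631 knock-out tags, 7124 wild-type tags and 796 input tags. Both of these ChIP folds follow from the choice of sites. The rule required knock-out tags, and wild-type tags had made the deposited list, at whose other sites they stood at 8.13 times. The likeness of the knock-out and wild-type folds is thus not a result about binding.

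Most members lay at the threshold. Exactly 3 knock-out tags were found at 1063 kept sites, 3 or 4 at 1472, 5 or more at 441, 8 or more at 88 and 10 or more at 28. Just outside the rule, 3021 sites had 2 knock-out tags with 0 or 1 input tags, and 389 sites had 3 or more knock-out tags but 2 input tags. Input tags were absent at 1117 of the kept sites and numbered 1 at the other 796. The knock-out count exceeded the wild-type count at 806 kept sites, equalled it at 483 and was lower at 624.

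To show what the rule itself selects, the same rule was applied with the input in place of the knock-out ChIP. This mirrored rule, with 3 or more input tags and 0 or 1 knock-out tags, gave 1494 sites or 3.87% of the deposited list. The kept rule was thus met by 4.95% of sites and the same rule on an unprecipitated, larger library by 3.87%. The mirrored sites serve below as a second reference beside all 36712 other deposited sites. A further reference, added after the data were seen, was the 837 sites with 3 or more knock-out tags that the rule left out because they had 2 or more input tags.

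Of the 7631 knock-out tags, 63 or 0.826% shared their position and strand with a wild-type tag, and 2 with an input tag. Kept sites held 7124 wild-type tags but 796 input tags, as the rule allowed 0 or 1 input tags per site. Of these wild-type tags 0.884% and of these input tags 0.251% were shared with a knock-out tag. After tags with the same strand and position had been collapsed, each knock-out tag there had been read 3.40 times on average, close to the 3.45 of the whole library. Knock-out reads fell into 3 groups by the start of their names, here called sequencing runs. The paper states that each sample was loaded into 3 flow cell channels and pooled. Tags of all 3 runs were present at 1596 kept sites, and at 6 sites they came from a single run. The runs are readings of the same amplified library, so their sharing of a site does not show that its tags were reproduced. No pair of kept sites had overlapping windows, and 36 lay within 2 kb of another kept site.

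**Figure D1:**
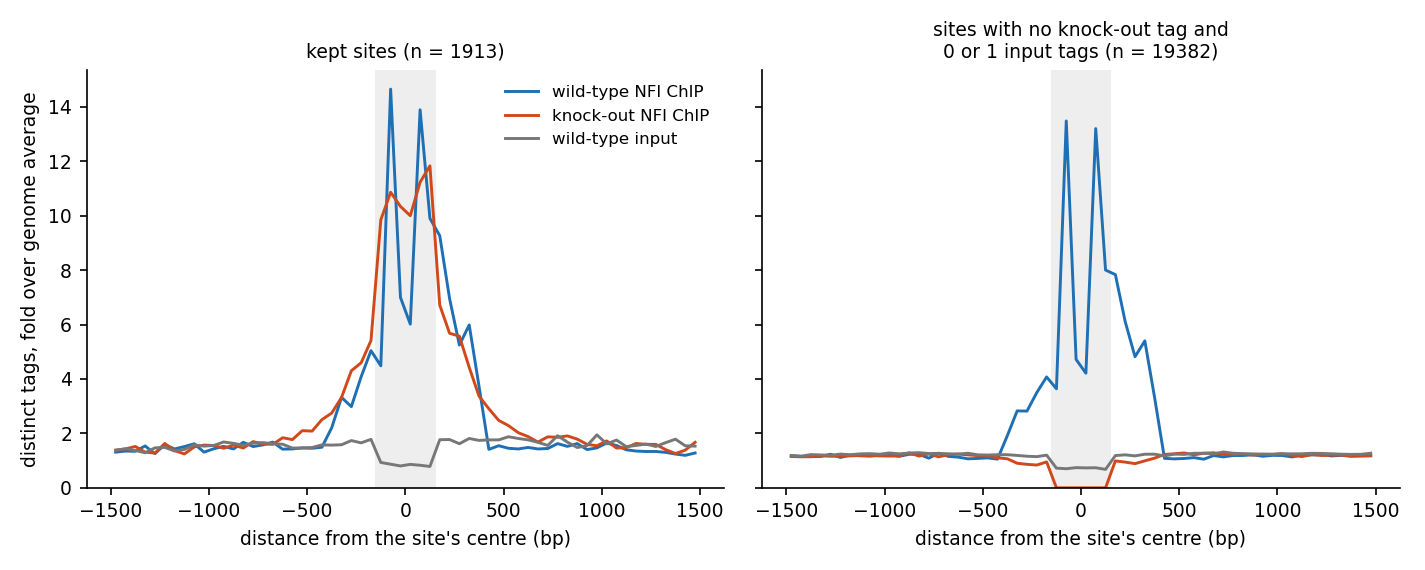
Distinct tags per 50 bp bin, as fold over the genome average of each library, against the distance from the site's centre in bp, for the 1913 kept sites (left) and for the 19382 sites with no knock-out tag and 0 or 1 input tags (right). The grey band is the 300 bp in which the rule counted tags, so the step of the knock-out and input lines at its edges follows from the rule. From the band out to 500 bp knock-out tags at kept sites exceed the input, with 4.01 against 1.69 times. This excess is a description, since mirrored sites show the reverse there, with 5.03 times for the input against 1.81 for the knock-out. Farther out both lines lie close together.

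Outside the counted window, from 150 to 500 bp on both sides, the knock-out ChIP at kept sites stood at 4.01 times its genome average, the wild-type ChIP at 3.91 times and the input at 1.69 times. From 500 to 1000 bp the values had fallen to 1.76, 1.5 and 1.66 times, and from 1000 to 2000 bp to 1.41, 1.38 and 1.46 times. At the sites with no knock-out tag the knock-out ChIP stood at 1.02 times from 150 to 500 bp while the wild-type ChIP stood at 3.35 times. The input at the mirrored sites also extended beyond the window, with 5.03 times its genome average from 150 to 500 bp and 2.78 times from 500 to 1000 bp. From 500 to 1000 bp the knock-out ChIP at kept sites was thus nearer to its genome average than the input at mirrored sites.

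The kept site with the most knock-out tags lay in an intron of Camk1d, a calcium/calmodulin-dependent protein kinase (chr2:5535044-5535059). It held 6 tags in wild type, 18 in the knock-out and 0 in the input. The site in an intron of Bcas3 (chr11:85589170-85589185) held 6 tags in wild type, 16 in the knock-out and 1 in the input. An intergenic site 207639 bp from B930007M17Rik on chromosome 3 held 7 tags in wild type, 15 in the knock-out and 0 in the input. At all of these the knock-out count was more than the wild-type count.

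The site 2605 bp from Prlhr, the receptor of prolactin-releasing peptide, held 3 tags in wild type, 14 in the knock-out and 1 in the input. The site in an intron of Sgcd, encoding delta-sarcoglycan, held 5, 13 and 0 tags in the same order. The site 18058 bp from Tgfbr3, which encodes the TGF-beta co-receptor betaglycan, held 7, 12 and 0 tags. A site in an intron of Nr3c1, the glucocorticoid receptor, held 7, 11 and 0 tags. Sites nearest to Fat4 and Fat1, both atypical cadherins, held 7 wild-type and 11 knock-out tags each, with 0 and 1 input tags. The Fat4 site lay in an intron and the Fat1 site 602478 bp from the gene.

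The D7Ertd443e intron site (chr7:141479748-141479763) was the exception among the 20 strongest, with 18 wild-type against 11 knock-out tags and 1 input tag. At the other 19 the knock-out count was the higher one, as a ranking on knock-out tags favours. Over the 20 sites the wild-type count ran from 3 to 18 with a median of 7, and the knock-out count from 10 to 18 with a median of 11.5. Of the 20 sites 10 lay in introns and 10 were intergenic. Regions rich in H3K4me3 held 16 of the 20 and H3K27me3-rich regions 17. The arm TTGGCA was present in 10 of the 20, a palindrome in 3 and the AP-1 motif in 3. Over the 88 kept sites with 8 or more knock-out tags, H3K4me3-rich regions held 79.5%. The arm was present in 50.0% of these 88, a palindrome in 14.8% and AP-1 in 14.8%, so the counts of the 20 are near these shares. H3K27me3-rich regions held 67.8% of the 441 kept sites with 5 or more knock-out tags.

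**Figure D2:**
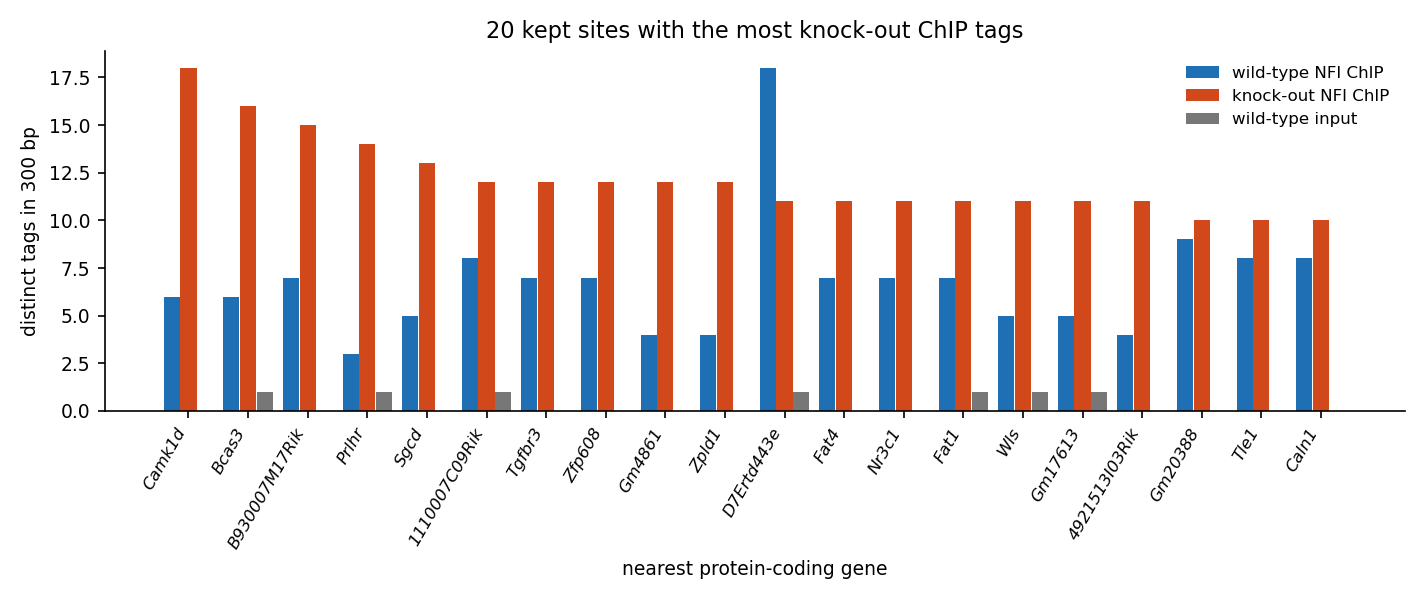
Distinct tags in 300 bp (vertical axis) of each library (wild-type ChIP, knock-out ChIP, input) at the 20 kept sites with the most knock-out tags, ordered by knock-out tags and named by the nearest protein-coding gene. Knock-out counts run from 10 to 18, input counts are 0 or 1, and only the D7Ertd443e site has more wild-type than knock-out tags.

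Kept sites carried the NFI palindrome more often than the rest of the deposited list as a whole, but not detectably more often than the other sites with 3 or more knock-out tags. A match with at most 2 mismatches was present in 9.98% of kept sites and in 2.68% of all other sites, a difference of 7.31 points (6.03 to 8.74). With at most 1 mismatch the shares were 2.30% and 0.439%, and without mismatch 0.523% and 0.0354%. Of the 23 deposited sites with an exact palindrome 10 were kept, or 43.5%, against 4.95% of all deposited sites. Of the 205 with at most 1 mismatch 21.5% were kept, and of the 1174 with at most 2 mismatches 16.3%.

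The 837 sites with 3 or more knock-out and 2 or more input tags held a palindrome in 8.24% (6.47 to 10.3), and the difference of kept sites from them was 1.74 points (-0.676 to 3.94). The difference was as large as above against references with few knock-out tags. The palindrome was found in 2.41% of the mirrored sites, a difference of 7.57 points (6.02 to 9.15). It was found in 1.96% of the sites with no knock-out tag and 0 or 1 input tags, a difference of 8.02 points (6.74 to 9.46). In windows of the same length 2 kb to the left and right of kept sites the shares were 1.52% and 1.05%, with intervals of the difference from the flanks of other sites that included 0. With every copy of a tag counted the difference from all other sites was 2.39 points (1.93 to 2.89), and in a 600 bp counting window 4.03 points (3.25 to 4.90). Over the flanks of all deposited sites the share was 1.26%, and over the deposited windows themselves 3.04%.

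Kept sites held on average 45.1% G and C, against 42.4% at all other sites, 41.1% at sites with no knock-out tag and 51.5% at the mirrored sites. With the other sites weighted to the base composition of the kept sites, the palindrome difference was 7.02 points (5.74 to 8.46). The difference was thus nearly as large at matched base composition.

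The palindrome share rose with the number of knock-out tags among sites with 0 or 1 input tags. It was 1.96% at 0 tags, 3.16% at 1, 4.57% at 2, 6.96% at 3, 11.0% at 4, 12.6% at 5, 25% at 7, with 19 of 95 sites at 6. At 8 or more tags it was 14.8% (8.11 to 23.9) over 88 sites. From 3 tags upward the intervals of neighbouring steps overlapped, including those at 3 and at 4 tags. The share already exceeded that of the tagless sites at 1 and 2 knock-out tags, which the rule left out.

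**Figure D3:**
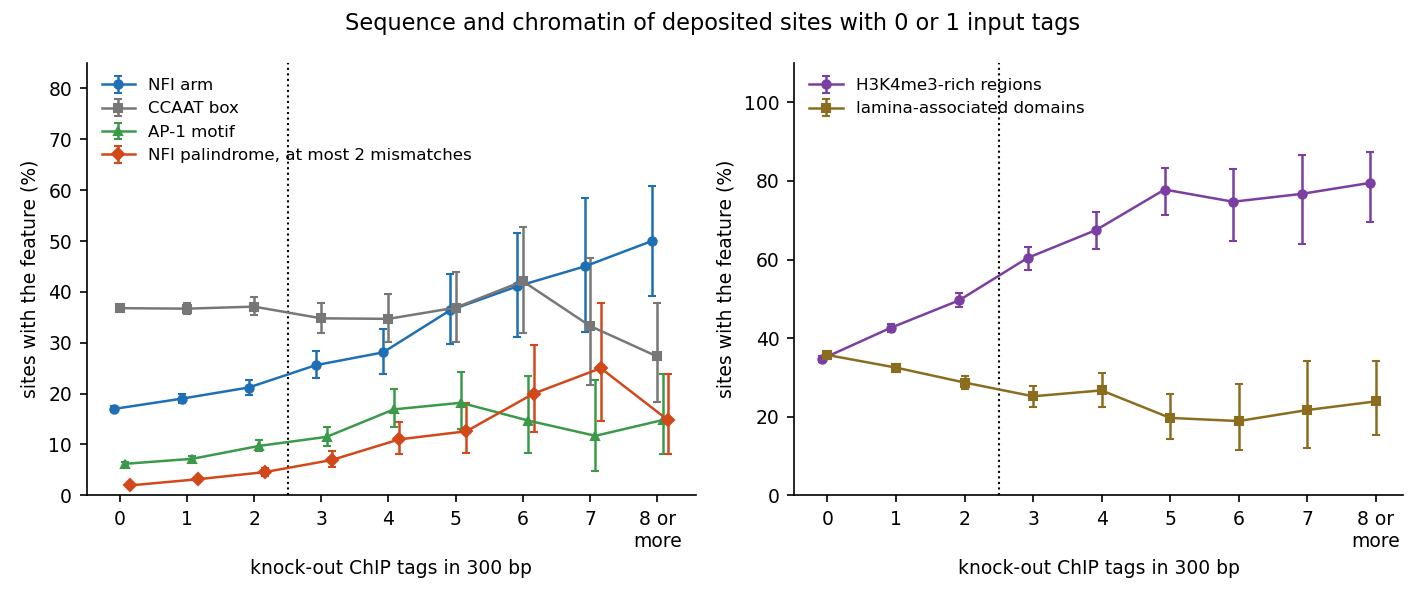
Share of sites with a feature (vertical axis, %) against the number of knock-out ChIP tags in 300 bp, for deposited sites with 0 or 1 input tags; error bars are exact binomial 95% intervals and the dotted line marks the rule, with kept sites on its right. The NFI palindrome and its arm TTGGCA, the AP-1 motif and H3K4me3-rich regions are more frequent at every step right of the line than at 0 tags and lamina domains less frequent, whereas the CCAAT box stays between 27.3% and 42.1%.

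The arm TTGGCA, searched on both strands and forming a part of the palindrome, was present in 29.7% of kept sites and 18.1% of other sites, a difference of 11.6 points (9.58 to 13.7). With every copy of a tag counted the difference was 3.73 points (2.78 to 4.7), and in a 600 bp counting window 6.86 points (5.43 to 8.34). Among sites without a palindrome the arm was still more frequent, in 25.8% of 1722 kept sites and 16.8% of 35729 other sites, a difference of 9.03 points (6.98 to 11.2). Its share rose from 17% at 0 knock-out tags to 50.0% (39.1 to 60.9) at 8 or more. The 837 sites with 3 or more knock-out and 2 or more input tags held it in 27.7%, a difference of 2.03 points (-1.69 to 5.62). Even so, 66.8% of kept sites held neither a palindrome nor an arm, against 81.0% of other sites.

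Mismatches within the matched palindromes were not spread alike. Counted from the outer end of each arm, both arms together, the G at position 3 carried 3.96% of the mismatches at kept sites and 10.2% at other sites. The G at position 4 carried 3.66% and 13.4%. The outermost T at position 1 took 32% at kept and 25.9% at other sites, and the innermost A at position 6 took 29.3% and 19.7%. The matches at kept sites had thus more often an intact GG core than those at other sites.

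The match lay a median of 55 bp from the centre of the kept sites and 69 bp from that of other sites, with 45.5% and 36.3% of them within 50 bp. Kept sites with a 2-mismatch palindrome had 4.57 wild-type and 4.61 knock-out tags on average, against 3.63 and 3.93 at kept sites without a palindrome. Among other sites the wild-type means were 3.61 and 3.24. With an exact palindrome the wild-type mean was 3.8 over 10 kept and 4.31 over 13 other sites. The knock-out means are given as a description, since the rule used these counts.

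Tags around the palindromes were ordered by strand. A tag was counted as pointing at the palindrome when it was a forward tag left of its centre or a reverse tag right of it, within 150 bp. At the 191 kept sites with a palindrome 78.2% of wild-type tags (75.2 to 80.9) and 71.5% of knock-out tags (68.4 to 74.6) pointed at it, against 50.5% of input tags (39.9 to 61.2). At the 983 other sites with a palindrome the shares were 67.3% of wild-type tags (65.7 to 68.9), 63.0% of knock-out tags (60 to 66) and 54.2% of input tags (50.9 to 57.5). In both groups the ChIP tags faced the palindrome more often than the input tags did. For knock-out against input tags this is given as a description, since these tags chose the groups. Wild-type tags faced the palindrome more often at kept than at other sites, with intervals that did not overlap. Knock-out tags were not compared between the groups.

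**Figure D4:**
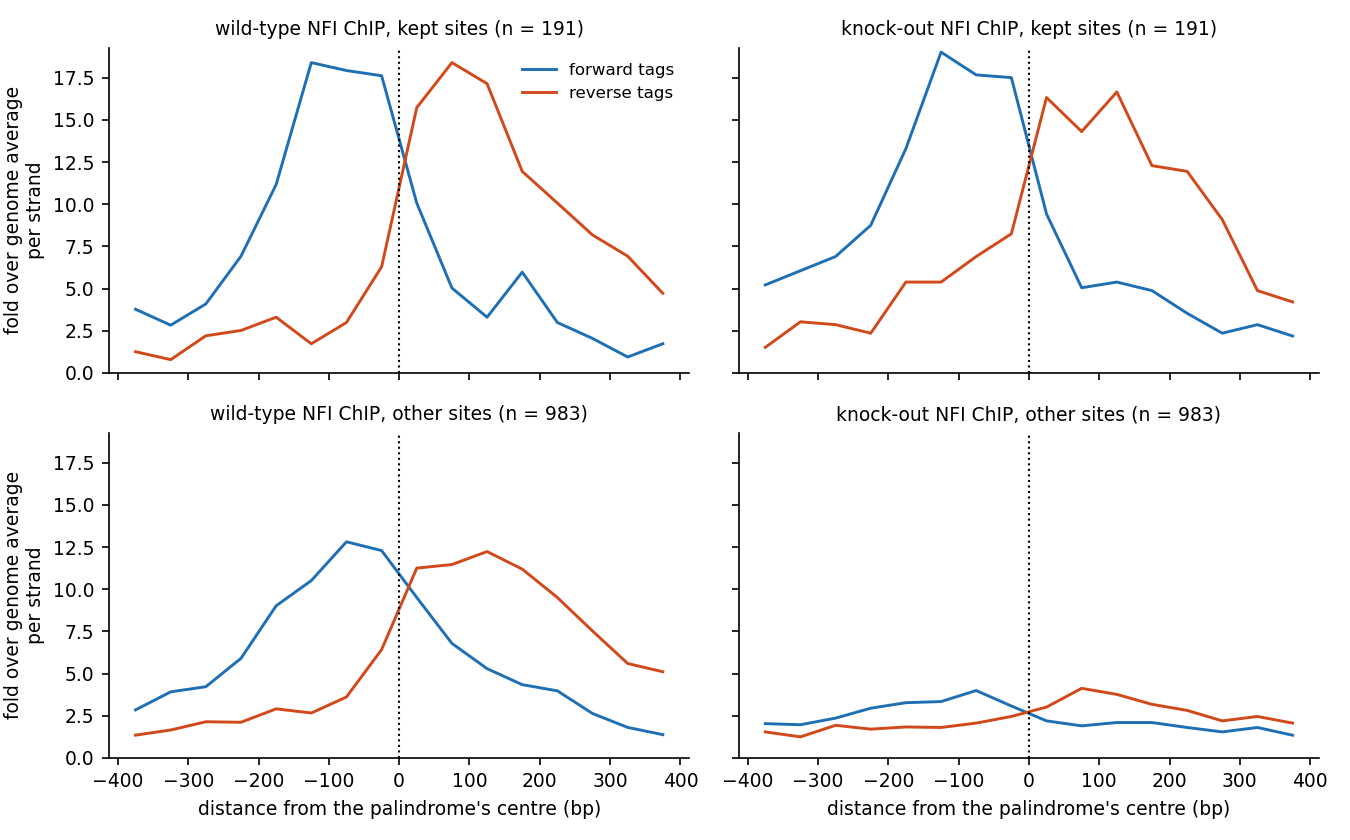
Forward and reverse tags in 50 bp bins, as fold over the genome average per strand, against the distance from the palindrome's centre in bp, for wild-type (left) and knock-out ChIP (right) at the 191 kept sites (top) and the 983 other sites (bottom) that held a palindrome. Forward tags peak left and reverse tags right of the centre, reaching 18.4 times the average in the wild-type and 19.02 times in the knock-out ChIP at kept sites, against 12.8 and 4.12 times at other sites. The height of the knock-out lines follows from the rule, which counted knock-out tags in this window.

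Several other short motifs, each searched on both strands, were also more frequent in kept sites. AP-1, the Fos and Jun dimer of growth factor responses, binds TGAGTCA, which was present in 13.6% of kept and 7.05% of other sites, a difference of 6.59 points (5.10 to 8.22). GGAATG, the target of the TEAD factors of the Hippo pathway, was present in 24.3% and 17%, a difference of 7.23 points (5.32 to 9.24). With every copy of a tag counted the AP-1 and TEAD differences were 2.36 and 2.86 points, and in a 600 bp counting window 2.93 and 3.12 points. TGTGGT, bound by RUNX factors, was present in 23.9% and 19.8%, a difference of 4.05 points (2.15 to 6.05). In the window 2 kb to the left of kept sites TGTGGT was present in 22.2%, against 20.4% at other sites with a difference of 1.78 points (-0.0677 to 3.74) and 2.17 points (0.313 to 4.14) against other sites with 0 or 1 input tags. These 3 motifs kept the direction of the difference against the mirrored sites, which held them in 5.76%, 16.2% and 17%. They were not particular to kept sites, as the 837 sites with 3 or more knock-out and 2 or more input tags held them in 12.3%, 21.3% and 22%, and all 3 intervals of the difference included 0.

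The E-box CAGCTG was present in 18.2% of kept and 13.4% of other sites, a difference of 4.84 points (3.14 to 6.67), but its difference from the mirrored sites was 2.31 points (-0.246 to 4.83). With other sites weighted to the base composition of the kept sites it was 2.31 points as well (0.591 to 4.15), and from the 837 sites with 3 or more knock-out and 2 or more input tags, of which 20.2% held it, -1.95 points (-5.25 to 1.2). The CCAAT box, the target of NF-Y and the motif that gave NFI its older name CTF, was present in 35.0% of kept and 36.4% of other sites, with a difference of -1.41 points (-3.58 to 0.805). CCAAT on its other strand can share letters with the NFI arm. The GC box GGGCGG was present in 5.54% and 4.82%, a difference of 0.717 points (-0.248 to 1.85), and in 25.5% of the mirrored sites. Against other sites with 0 or 1 input tags, of which 3.03% held it, its difference was 2.51 points (1.55 to 3.65), so that the call depended on the reference. The ETS motif CCGGAA was present in 4.44% of kept, 3.46% of other and 11.2% of mirrored sites, and the cyclic AMP response element TGACGTCA in 0.418% of kept and 0.283% of other sites with an interval that included 0.

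The NFI arm and AP-1 occurred together in 4.23% of kept sites and 1.42% of other sites, a difference of 2.81 points (1.99 to 3.81), but in 4.30% of the 837 sites with 3 or more knock-out and 2 or more input tags. Whether they occurred together more often than their single shares give was not tested. AP-1 was present in 16.8% of the kept sites with a palindrome and in 13.3% of those without one. Over the flanks of all deposited sites the shares were 14.6% for TTGGCA, 5.14% for TGAGTCA, 16.1% for GGAATG, 20.4% for TGTGGT and 12% for CAGCTG. A match is a description of the letters in the window and does not show that the factor was bound.

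**Figure D5:**
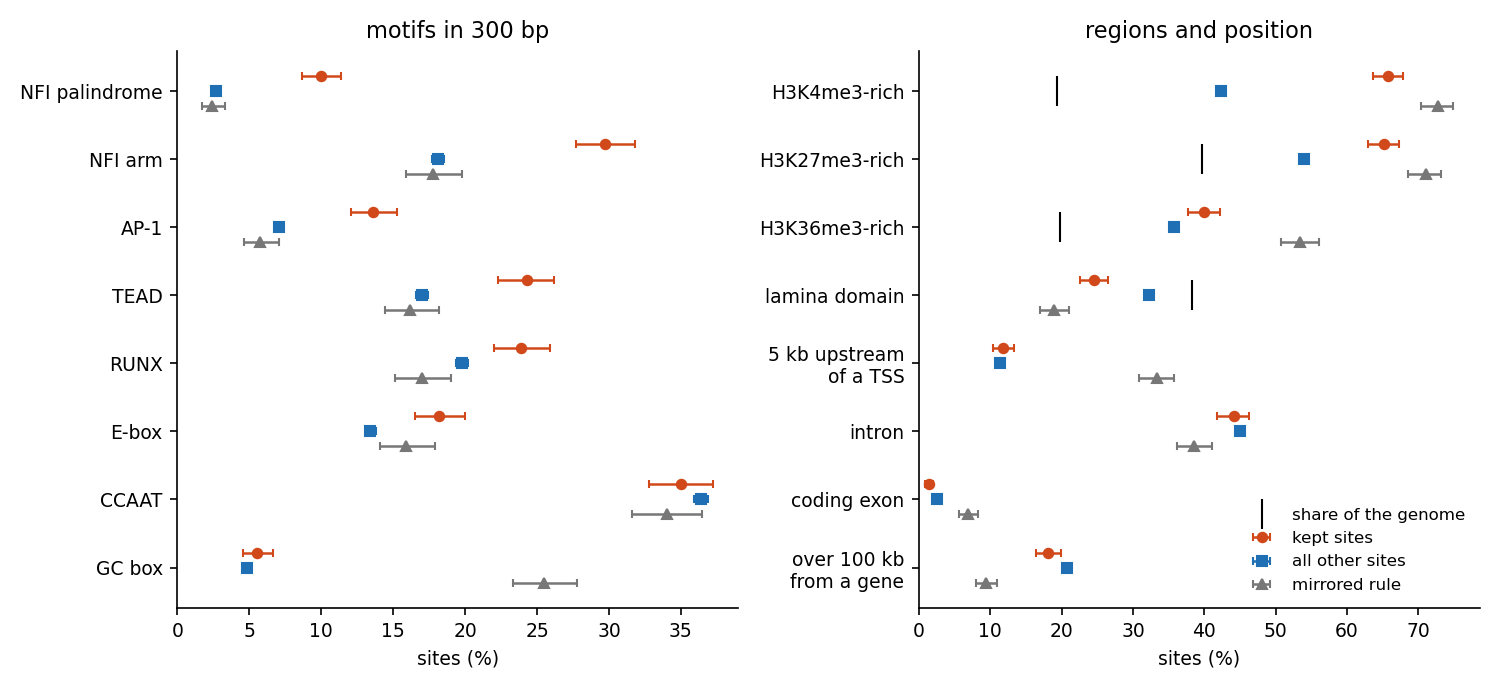
Share of sites (horizontal axis, %) with each motif in 300 bp (left) and in each kind of region or position (right) for kept sites, all other deposited sites and sites of the mirrored rule; error bars are exact binomial 95% intervals and black ticks give the share of chromosomes 1 to 19 covered by the region. The NFI motifs, AP-1, TEAD and RUNX are more frequent in kept sites than in both of these references, whereas the chromatin regions of kept sites lie between both, closer to the mirrored sites for H3K4me3, H3K27me3 and lamina domains and closer to other sites for H3K36me3.

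Wild-type tags had chosen the deposited list but not the kept sites within it. Kept sites had 3.72 wild-type tags on average and all other sites 3.25, a ratio of 1.15 (1.12 to 1.17). Against the 837 sites with 3 or more knock-out and 2 or more input tags, which held up to 287 wild-type tags each, the ratio was 0.621 (0.599 to 0.644). The median was 4 wild-type tags at these 837 sites and 3 at kept sites. The intervals of all ratios given here treat tags as independent, so tags gathered at a few sites make them too narrow. Against the 30494 other sites with 0 or 1 input tags the ratio was 1.17 (1.15 to 1.2), and for the kept sites with 5 or more knock-out tags it was 1.38 (1.32 to 1.44). The wild-type mean rose from 3.15 tags at 0 knock-out tags through 3.46 at 3 to 5.10 at 8 or more. The difference in wild-type tags was thus small at the threshold and larger at sites with many knock-out tags. With every copy of a tag counted, which changes which sites are kept, the ratio was 0.840 (0.834 to 0.846).

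Around the deposited centre, 65.9% of wild-type tags at kept sites and 65.8% at other sites pointed inward, a difference of 0.0976 points (-1.04 to 1.22). The authors had placed the centre from wild-type tags. The difference was 7.65 points (5.89 to 9.40) against the 837 sites with 3 or more knock-out and 2 or more input tags, 2.08 points (1.72 to 2.43) with every copy of a tag counted and -2.37 points (-4.09 to -0.701) in a 200 bp window, so its sign and size depended on these choices. Of the knock-out tags at kept sites 61.6% pointed inward and of the input tags 49.9%, which is given as a description, since these tags chose the sites.

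Whether kept sites lay more often upstream of genes depended on the reference and on how copies of a tag were counted. Of the kept sites 11.8% and of the other sites 11.4% lay within 5 kb upstream of a transcription start site (TSS) of a protein-coding gene, a difference of 0.387 points (-1.02 to 1.94). Within 1 kb upstream the shares were 5.38% and 5.06%, with an interval of the difference from -0.630 to 1.45 points. Against other sites with 0 or 1 input tags the 5 kb difference was 2.62 points (1.21 to 4.18), and the 1 kb share of these was 3.16%, a difference of 2.22 points (1.28 to 3.34). Against the mirrored sites, of which 33.3% lay within 5 kb upstream, the difference was -21.5 points (-24.2 to -18.7).

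Introns held 44.1% of kept and 45.0% of other sites. Coding exons held 26 kept sites, or 1.36%, against 2.48% of other sites, a difference of -1.12 points (-1.58 to -0.476), and this held against each reference. Sites inside any protein-coding gene made up 48.4% and 51.2%, a difference of -2.88 points (-5.17 to -0.585), and the interval included 0 under 7 of the alternatives tried. Sites over 100 kb from a gene made up 18.1% and 20.7%, a difference of -2.63 points (-4.34 to -0.794), although the mirrored sites had 9.37% there. Intergenic kept sites lay a median of 48.7 kb from the nearest gene and intergenic other sites 69.3 kb.

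Across chromosomes the kept share ran from 4.03% on chromosome 14 to 5.83% on chromosome 10, so that kept sites were found on all 19 autosomes in similar proportion. Another deposited site lay within 2 kb of 12.4% of kept sites and 8.96% of other sites, a difference of 3.43 points (1.99 to 5.01), but of 13.4% of the mirrored sites.

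The 10 kept sites with the most knock-out tags within 1 kb upstream of a TSS included that of Gm4861, 261 bp upstream, with 4 tags in wild type, 12 in the knock-out and 0 in the input. The site 647 bp upstream of Cir1, a corepressor of Notch target genes, held 7, 10 and 0 tags in the same order and a palindrome. The site 186 bp upstream of Ogn, encoding the matrix proteoglycan osteoglycin, held 4, 9 and 0 tags. The site 588 bp upstream of a TSS of Ppm1h, a protein phosphatase, held 4, 8 and 0 tags and a palindrome.

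Further sites lay 127 bp upstream of Atp6v1a, a subunit of the vacuolar proton pump, and 196 bp upstream of Dynlrb1, a dynein light chain. They held 3, 8 and 1 tags and 6, 7 and 1 tags. Sites near the starts of Znrd1, Ptbp1, Duoxa1 and Slc27a3 held 6 knock-out tags each and between 2 and 6 wild-type tags. All 10 lay in H3K4me3-rich regions, none in a lamina domain, and 4 held the arm TTGGCA. Within 1 kb of a TSS on either side, H3K4me3-rich regions held 94.5% of kept and 84.1% of other sites, so that all 10 is near the share there. The arm was present in 23.8% of kept and 16.2% of other sites within this distance.

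Among the sites with a palindrome of at most 1 mismatch, the one 10354 bp upstream of Ctnnb1, which encodes beta-catenin, held 7 tags in wild type, 9 in the knock-out and 1 in the input. The site in 2810055G20Rik, the host transcript of mir-125b-2, mir-99a and let-7c-1, held 3, 9 and 1 tags. Sites nearest to Celf2, an RNA-binding protein, and Wisp2, a secreted matricellular protein, held 9, 7 and 0 and 5, 7 and 0 tags. They lay 165618 and 19776 bp from these genes. The site 4793 bp from Wdfy1 held 13 tags in wild type, 6 in the knock-out and 1 in the input. The site 1651 bp upstream of Gdf15, a secreted member of the TGF-beta superfamily, held 5, 6 and 1 tags.

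Of the 10 kept sites with an exact palindrome, 7 lay in lamina domains and 6 in H3K4me3-rich regions. Among all 191 kept sites with a palindrome the shares were 25.7% and 62.8%. The 10 sites are few and were added after their values were seen. Their wild-type counts ran from 1 to 11 with a median of 3, and their knock-out counts from 3 to 7 with a median of 3.5. One of them, inside E130114P18Rik, lay 1181 bp upstream of an annotated TSS of the family member Nfia and held 1 tag in wild type, 6 in the knock-out and 1 in the input. The exact sites were thus not those with the most tags.

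Kept sites lay more often in regions rich in histone methylation that marks active or regulated genes. Regions rich in H3K4me3, a mark of promoters and of active chromatin around them, held 65.8% of kept sites and 42.3% of other sites, a difference of 23.5 points (21.3 to 25.6). The difference was 7.25 points (6.06 to 8.43) with every copy of a tag counted and 11.8 points (10.1 to 13.5) in a 600 bp counting window. These regions, as deposited, had a median length of 16.5 kb and covered 19.3% of chromosomes 1 to 19. The share rose with knock-out tags from 34.7% at 0 through 60.4% at 3 to 79.5% (69.6 to 87.4) at 8 or more. However, the mirrored sites held 72.7%, so that the difference of kept from mirrored sites was -6.88 points (-9.96 to -3.76). Sites chosen for input tags thus lay in these regions still more often than those chosen for knock-out tags.

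Kept and mirrored sites differed in their distance from genes. Within 1 kb of a TSS lay 8.57% of kept and 39.0% of mirrored sites. Among the sites farther away, H3K4me3-rich regions held 63.1% of 1749 kept and 56.8% of 912 mirrored sites, a difference of 6.32 points (2.41 to 10.3). Of the 598 sites farther away with 3 or more knock-out and 2 or more input tags they held 77.8%, and the difference of kept sites from these was -14.6 points (-18.5 to -10.5). Over all distances 83.8% of those 837 sites lay in H3K4me3-rich regions.

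H3K27me3, deposited by Polycomb complexes at silent developmental genes, gave a smaller difference. Its rich regions, with a median length of 38.8 kb, held 65.2% of kept and 53.9% of other sites, a difference of 11.3 points (9.06 to 13.4), against 39.7% of chromosomes 1 to 19 and 71.0% of mirrored sites. The difference was 2.93 points with every copy of a tag counted and 5.17 points in a 600 bp counting window. Against the 837 sites with 3 or more knock-out and 2 or more input tags it was -10.6 points (-14.1 to -6.88). Regions of H3K36me3, a mark of transcribed gene bodies, held 39.9% and 35.8%, a difference of 4.16 points (1.93 to 6.42), and 53.4% of mirrored sites. The interval included 0 with every copy of a tag counted (0.268 points, -0.867 to 1.41) and in a 600 bp window (0.403 points, -1.22 to 2.05). Both marks of H3K4 and H3K27 were rich at 45.2% of kept and 28% of other sites but 57.9% of mirrored sites and 66.7% of the 837 sites with 3 or more knock-out and 2 or more input tags, and neither at 14.2% of kept, 31.8% of other and 14.3% of mirrored sites. As the regions are long, they do not show whether both marks lay on the same nucleosomes.

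Lamina domains, where the genome contacts the nuclear lamina and genes are mostly silent, held 24.5% of kept and 32.3% of other sites, a difference of -7.87 points (-9.80 to -5.83). The mirrored sites held 18.9%, and the domains covered 38.3% of chromosomes 1 to 19. The lamina domains came from human fibroblasts and had been transferred to the mouse genome by the authors.

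The palindrome was more frequent at kept than at other sites in each class of region examined. Inside H3K4me3-rich regions the palindrome was present in 9.53% of kept and 3.03% of other sites, a difference of 6.51 points (4.98 to 8.27), and outside them in 10.9% and 2.42%, a difference of 8.43 points (6.26 to 11.1). Within 1 kb of a TSS the difference was 8.68 points (4.72 to 14.4) over 164 kept sites, and farther away 7.18 points (5.85 to 8.68). Inside and outside lamina domains it was 8.09 and 7.01 points. The palindrome share at kept sites was thus near 10% in each of these classes. For AP-1 the difference was 6.99 points (5.05 to 9.13) inside and 4.29 points (2.15 to 6.88) outside H3K4me3-rich regions, and 3.21 points (-0.126 to 8.42) within 1 kb of a TSS against 6.91 points (5.33 to 8.65) farther away. Sites with a palindrome lay in H3K4me3-rich regions in 62.8% of kept and 47.8% of other sites, a difference of 15 points (7.31 to 22.3), and sites without one in 66.1% and 42.2%, a difference of 24.0 points (21.6 to 26.2). The lamina difference was -3.03 points (-9.41 to 4.14) with a palindrome and -8.10 points (-10.1 to -5.96) without. Whether these differences change between classes was not tested.

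The nearest protein-coding gene was taken by its annotated extent. The 1913 kept sites had 1558 nearest genes, of which 268 had 2 or more kept sites and 15 had 4 or more. Zfp608, a zinc finger protein gene, had the most, with 7 kept of 36 deposited sites. Gm20388, Mcc, Pcdh9, Pde4d, Reep3 and Tmcc3 had 5 each. Among the 15 genes with 4 or more kept sites, the share was highest at Chd2, a chromatin remodeller, and Zfp703, a transcriptional repressor. At each of them 4 of 7 deposited sites were kept, and at Tmcc3 5 of 9. A gene with few deposited sites can have this many kept sites only at a high share, so these shares follow from the choice. Ccdc99 and E130308A19Rik, with 3 of 5 each, had a higher share. At genes with many deposited sites the share was lower. It was 7.02% at Zeb2, with 4 of 57, and 10.4% at Pde4d, with 5 of 48. The whole list had 4.95%, but both genes were taken for having 4 or more kept sites. A higher share at these numbers of deposited sites thus follows from the choice as well.

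The lists of fibroblast genes contributed 79 kept sites in all. Of the deposited sites nearest to genes of matrix glycoproteins 16 of 182 were kept, or 8.79%, and of those nearest to collagens 12 of 166, or 7.23%. PDGF and FGF signalling gave 8 of 120 or 6.67%, actin cytoskeleton and adhesion 11 of 175 or 6.29%, mesenchymal transcription factors 21 of 346 or 6.07%, and TGF-beta and BMP signalling 10 of 173 or 5.78%. The NFI genes gave 1 of 53 or 1.89%. These shares are to be read against 4.95% over all deposited sites, and no test was made of the lists.

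Among the matrix genes, the site with the most knock-out tags lay 26361 bp from Nid1, a basement membrane protein, with 5 tags in wild type, 7 in the knock-out and 0 in the input. A site 51 bp upstream of Ltbp3, which binds latent TGF-beta, held 3, 3 and 0 tags. A site in Fn1, encoding fibronectin, was the 1 kept site of these lists in a coding exon, with 2, 3 and 0 tags. The remaining matrix glycoproteins with a kept site were Fbln2, Postn, Thbs2, Ltbp1, Lox, Tnc, Fbn1, Thbs1, Fbln5, Fbn2, Nid2 and Loxl2, with 3 to 5 knock-out tags each. A Thbs1 site lay 307163 bp from its gene. Of the 16 sites in all, 15 lay in H3K4me3-rich regions. None of the 16 held a palindrome and 5 held the AP-1 motif. Over all kept sites the shares were 65.8% in H3K4me3-rich regions, 9.98% with a palindrome and 13.6% with AP-1. Over so few sites the absence of a palindrome is near this share.

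The collagen sites were those nearest to Col1a2, Col8a1, Col11a1, Col5a1, Col4a3, Col25a1, Col16a1, Col6a2, Col3a1 and Col12a1, with 3 to 6 knock-out tags. Palindromes were present at 1 site of Col11a1 and at that of Col16a1, and 7 of the 12 held the arm. Over all kept sites the shares were 9.98% and 29.7%. Some lay far away: that of Col12a1 was 435287 bp from the gene, that of Col3a1 194608 bp and those of Col11a1 170959 and 169870 bp. The Col1a2 site, with 3 tags in wild type, 6 in the knock-out and 1 in the input, was 73698 bp upstream of the gene.

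In TGF-beta and BMP signalling the receptors Tgfbr1, Tgfbr2, Tgfbr3 and Acvr1, the ligands Bmp4 and Bmp6, the transducer Smad3 and the inhibitor Smad7 had kept sites. The Bmp6 intron site held 5 tags in wild type, 8 in the knock-out and 0 in the input, and the Smad3 intron site 3, 8 and 1. Tgfbr3 and Smad7 had 2 kept sites each. None of the 10 sites held a palindrome, which over so few sites is near the 9.98% of all kept sites.

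In PDGF and FGF signalling, Fgfr2 had 3 kept sites, one of them with a 1-mismatch palindrome, an AP-1 motif and 6 tags in wild type, 5 in the knock-out and 0 in the input. Pdgfa, Pdgfc, Pdgfd, Fgf2 and Fgf7 had 1 each, that of Pdgfc 348778 bp from the gene. Among adhesion and cytoskeletal genes, the intron site of the integrin gene Itgb5 held 2 tags in wild type, 10 in the knock-out and 0 in the input, one in the actinin gene Actn4 held 6, 9 and 1, and that of Itga11 held 5, 9 and 0 with a palindrome. Sites of Tagln, Itga9, Tln2, Acta2, Actn1 and Ptk2 held 3 to 7 knock-out tags.

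Mesenchymal transcription factors with kept sites were Nr2f1, Nr2f2, Zeb2, Sox5, Sox6, Fosl2, Foxc1, Runx1, Meis1, Meis2 and Prrx1, with 3 to 6 knock-out tags at each site. Zeb2 and Sox5 had 4 each. Those of Zeb2 lay 296486 to 1325401 bp from the gene. Of the Sox5 sites 2 lay in its introns and the others 187705 and 220015 bp from it. Nr2f1 had 3, of which the nearest was 283538 bp from the gene. The NFI gene with a kept site by this measure was Nfib, in an intron (chr4:82112713-82112728), where 4 wild-type and 3 knock-out tags but no input tag were counted, with neither a palindrome nor an arm.

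In the deposited files of miRNA loci, 13 of the 228 deposited sites within transcribed regions that hold a miRNA were kept, or 5.70%, near the 4.95% of all deposited sites. The strongest was the site in the host of mir-125b-2, mir-99a and let-7c-1 on chromosome 16, 77501537 to 77501552, given above. The site at mir-31 held 3 tags in wild type, 8 in the knock-out and 1 in the input. At mir-582 there were 4 kept sites, with 3 to 6 knock-out tags each, and at mir-218-2 there were 3, with 3 knock-out tags each.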

How the data were processed

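Wild-type NFI ChIP, knock-out NFI ChIP and wild-type input libraries of mouse embryonic fibroblasts were compared, with 1 library each. Per the labels the reads were aligned by ELAND to mm9. The authors deposited every read with its match and without normalization, so tag counts are raw counts. The authors also deposited the in vivo sites, made with ChIP-peak from wild-type tags, and regions of histone methylation and lamina domains.

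Uniquely mapped tags were placed at their 5′ end, collapsed to 1 for each combination of strand and position, and summed in 300 bp around each site. ELAND had matched the first 32 bases of reads of 35 or 36 bases. Of 2000 reads checked per library, 1998 or more equalled the mm9 reference over these bases, and the 5′ end of reverse tags was set accordingly. The libraries held 3350071, 3132004 and 4100449 distinct tags. Genes came from GENCODE vM1 on the same build. Nearest genes, introns and TSS refer to protein-coding genes. Differences of shares carry 95% Newcombe intervals, shares and ratios exact binomial ones. PCR copies are not independent molecules, so intervals cover counting error only.

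Sites named were the 20 kept sites with the most knock-out tags, the 10 strongest within 1 kb upstream of a TSS, the 10 strongest with a palindrome of at most 1 mismatch, and genes of 7 lists. Genes with 4 or more kept sites, exact palindromes and miRNA loci were added after their values were seen. The members and lists were chosen with earlier results of these data known. Functions were tested on simulated data with fixed seeds. The tools were pandas 2.3.3, pysam 0.24.0, SciPy 1.17.1, matplotlib 3.10.9 and NumPy 2.4.6 under Python 3.11.15. Alternatives are given in the closing section.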

Additional observations from a re-analysis of the deposited data

How the results depend on the processing

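Over 22 alternatives, 258 values were recomputed. The palindrome difference kept an interval above 0 in 19, from 1.86 to 13.4 points, and those of the NFI arm, AP-1 and TEAD motifs in 16. With every copy of a tag counted these motifs differed by 3.73, 2.36 and 2.86 points, and in the 600 bp window by 6.86, 2.93 and 3.12, and the E-box by 1.28 and 1.93. The exception to the interval above 0 was the comparison with the 837 sites of 3 or more knock-out and 2 or more input tags, chosen after seeing the data. There the differences were 1.74 points for the palindrome, -1.95 for the E-box, -19.0 upstream of a TSS, -3.74 inside genes, 7.65 in the strand order, -17.9 in H3K4me3, -10.6 in H3K27me3, -15.6 in H3K36me3 and 8.10 in lamina domains, and the ratio of wild-type tags was 0.621. With every copy of a tag counted, 8844 sites with 4839 nearest genes were kept, the difference upstream of a TSS was -1.03 points, inside genes -0.832, in H3K36me3-rich regions 0.268, in the strand order 2.08, and the ratio of wild-type tags was 0.840. Under the same alternative the H3K27me3 difference was 2.93 and that of lamina domains -2.59, and in the 600 bp window 5.17 and -3.60. In a 200 bp window 1003 sites with 874 nearest genes were kept, and in a 600 bp window 3678 with 2626. With 4 or more knock-out tags the numbers were 850 and 757, and with 5 or more 441 and 416. With no input tag they were 1117 and 966. The stricter tag limits can only lower these numbers, whereas a change of window moves both the knock-out and the input counts. The strand order difference was -2.37 points in the 200 bp window. The difference inside genes was -1.45 points in the 600 bp window, -3.28 with 4 or more knock-out tags, -2.74 with no input tag, -2.03 without the second sequencing run of the knock-out library and -2.31 against other sites with 0 or 1 input tags, each with an interval that included 0. In the 600 bp window the H3K36me3 difference was 0.403, and its interval included 0 there and with every copy counted. The difference upstream of a TSS was 2.62 points against other sites with 0 or 1 input tags and 3.32 against those with no knock-out tag. Against the mirrored rule it was -21.5 points, H3K4me3 -6.88, H3K27me3 -5.76, H3K36me3 -13.5 and lamina domains 5.52. The cause of these changes was not tested. No paired analysis was possible because each condition had 1 library. Depth limits each site to a few tags, so membership near 3 knock-out tags is uncertain.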

Other observations

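Chromosome X was outside the rule. Of its 1182 deposited sites 28 had 3 or more knock-out tags and 0 or 1 input tags, or 2.37%, and 31 met the mirrored rule, or 2.62%. A palindrome was present at 4 of the 28.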
